A study of Mus musculus with 18 samples.

Results

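Cells of the embryonic day (E) 7.5 mouse embryo that carried transcripts of T and none of Foxa2 were divided by Mesp1. A cell entered with at least 2000 nuclear transcripts, at least 1 transcript of T and 0 of Foxa2. The rule found 234 such cells among the 429 E7.5 cells of that depth, which were themselves part of 972 in the whole series. The Mesp1 side had at least 1 Mesp1 transcript and held 108 cells, and the Mesp1-zero side held 126. The names proposed for the sides were nascent mesoderm and, for the Mesp1-zero side, streak and caudal epiblast. All animals were wild-type C57BL/6 mice, with no treatment. E7.5 embryos of 1 or 2 litters had been pooled per sort, trimmed so that extraembryonic mesoderm stayed in the sample, and their cells were sorted by flow cytometry into 12 libraries of 96 cells. The E6.75 cells used for comparison came from embryos that had lost their extraembryonic part, and were picked by hand into 6 libraries of 96 cells. The markers used in the flow sort, the embryo of origin and the sex of each cell were not given in the sources used here. Libraries were therefore the replicates, and p-values measured the spread between libraries, some of which may share litters. Libraries were unequally alike by a pairwise chi-square per degree of freedom. It was 2.11 for replicates 3 and 4, 3.04 for 1 and 2, and 2.65 to 2.72 among 9, 10 and 11. The highest was 11.8, for 2 and 7. Whether like libraries shared litters or a sort was not tested. If they did, there were fewer independent units than libraries, and p-values may be too small.

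At gastrulation, epiblast cells enter the primitive streak, loosen their epithelial contacts and leave it as mesoderm or definitive endoderm. T (Brachyury) is a T-box transcription factor of the streak, of nascent mesoderm and of the caudal epiblast, whereas Mesp1 is a basic helix-loop-helix factor switched on as cells leave the streak as mesoderm. Foxa2 is a forkhead factor of endoderm and axial mesoderm, and cells with its transcripts were left out. A count of 0 in a shallow cell excludes little. In the GENCODE M21 annotation of GRCm38, Mesp1 lies on chromosome 7 and T on chromosome 17, and neither overlaps another annotated gene. Mesp1 spans chr7:79792241-79793788 on the minus strand and T chr17:8434423-8442496 on the plus strand.

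The promoter windows of Mesp1, of the mesoderm repressor gene Snai1 and of 4 epithelial genes that were lower on the Mesp1 side are shown because the letters CACCTG, or CAGGTG on the other strand, are the E-box core that SNAI1 and related repressors are known to bind. Each window holds the 250 bases before the RefSeq start, 5′ to 3′ on the gene's strand (GRCm38.p6), and capitals mark the 6-letter motif. GENCODE M21 places the starts of Mesp1, Cldn6 and Krt18 further upstream, so part of these windows lies inside the gene by that annotation.
Mesp1 (chr7:79793591-79793840, minus strand): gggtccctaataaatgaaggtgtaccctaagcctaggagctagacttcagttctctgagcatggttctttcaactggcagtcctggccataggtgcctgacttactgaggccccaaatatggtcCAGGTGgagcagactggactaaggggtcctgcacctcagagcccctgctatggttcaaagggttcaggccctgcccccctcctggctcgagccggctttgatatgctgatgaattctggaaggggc
Snai1 (chr2:167537945-167538194, plus strand): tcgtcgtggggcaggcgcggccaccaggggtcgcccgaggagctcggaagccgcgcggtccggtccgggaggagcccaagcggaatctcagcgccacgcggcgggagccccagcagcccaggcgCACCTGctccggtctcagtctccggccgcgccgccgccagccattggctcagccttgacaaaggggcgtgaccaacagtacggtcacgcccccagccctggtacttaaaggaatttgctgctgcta
Cldn6 (chr17:23679115-23679364, plus strand): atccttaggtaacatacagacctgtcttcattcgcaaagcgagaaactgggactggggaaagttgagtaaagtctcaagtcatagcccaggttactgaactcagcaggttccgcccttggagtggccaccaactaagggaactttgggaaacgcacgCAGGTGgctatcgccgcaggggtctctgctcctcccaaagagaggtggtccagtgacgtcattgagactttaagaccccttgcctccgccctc
Epcam (chr17:87635729-87635978, plus strand): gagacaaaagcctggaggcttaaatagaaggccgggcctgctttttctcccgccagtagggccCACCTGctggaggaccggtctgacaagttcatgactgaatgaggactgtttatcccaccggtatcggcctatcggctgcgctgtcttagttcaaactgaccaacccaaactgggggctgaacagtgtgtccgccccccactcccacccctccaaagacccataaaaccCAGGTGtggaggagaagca
Spint2 (chr7:29281978-29282227, minus strand): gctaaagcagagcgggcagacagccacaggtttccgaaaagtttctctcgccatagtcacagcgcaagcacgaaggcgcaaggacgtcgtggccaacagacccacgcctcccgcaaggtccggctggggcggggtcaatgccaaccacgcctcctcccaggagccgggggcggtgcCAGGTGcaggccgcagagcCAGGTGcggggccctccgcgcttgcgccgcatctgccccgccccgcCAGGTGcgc
Krt18 (chr15:102027966-102028215, plus strand): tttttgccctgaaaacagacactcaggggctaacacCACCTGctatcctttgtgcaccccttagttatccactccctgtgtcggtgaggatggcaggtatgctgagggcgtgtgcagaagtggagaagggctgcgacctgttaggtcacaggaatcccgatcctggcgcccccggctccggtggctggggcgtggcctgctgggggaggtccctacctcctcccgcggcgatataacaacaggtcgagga

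The cells were spread unevenly over the libraries. Replicate 5 held 3042 transcripts and no cell that passed, and the other 11 libraries held between 518343 (replicate 9) and 2627269 (replicate 2). Replicate 8 gave 6 Mesp1 cells and no Mesp1-zero cell, and replicate 12 gave 1 against 8. The remaining 9 libraries (replicates 1 to 4, 6, 7 and 9 to 11) had at least 3 cells on each side and entered the gene test, with 101 Mesp1 cells and 118 Mesp1-zero cells. Mesp1 cells were the deeper ones, with a median of 40788 transcripts per cell against 26956. The gap was widest in replicate 9 (49730 against 4058) and replicate 11 (44390 against 10260), and it was reversed in replicates 7 and 10. The Mesp1-zero sum of replicate 9 rested on 3 cells and 19192 transcripts, so its values are coarse.

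**Figure D1:**
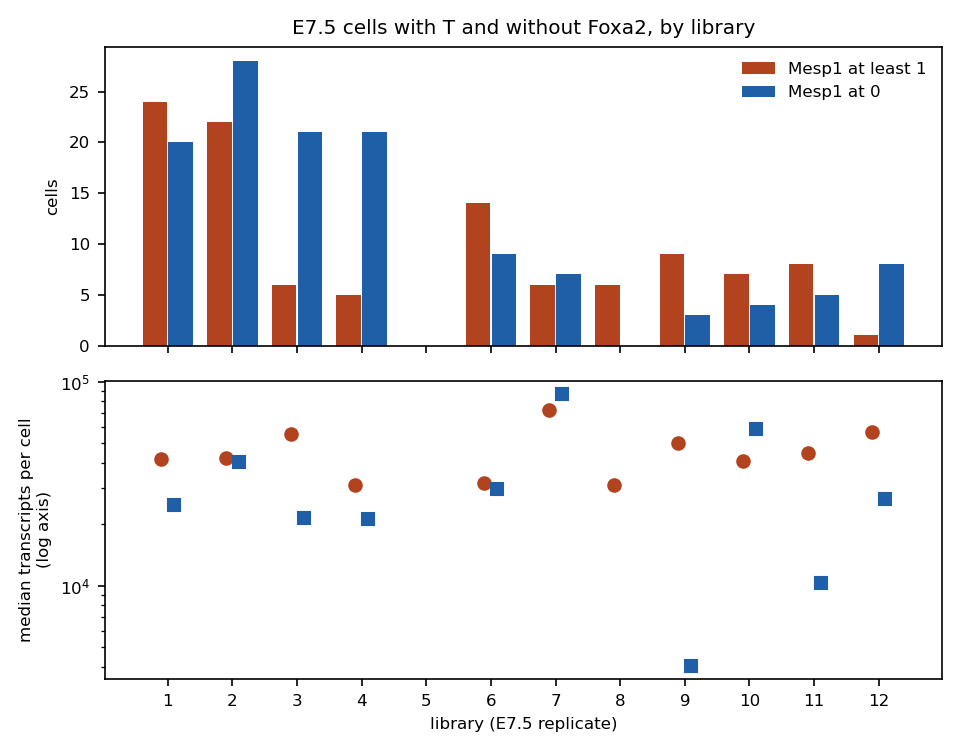
Cells per E7.5 library on each side (upper panel, bars from 0) and the median number of transcripts per cell of each side (lower panel, log axis). Circles and orange bars are the Mesp1 side, squares and blue bars the Mesp1-zero side. Replicate 9 has the widest depth gap (49730 against 4058), and replicates 7 and 10 show the reverse order.

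The genes that chose the cells are given as a description only. Among Mesp1 cells the median was 3 Mesp1 transcripts and the highest 45, with 33 cells at exactly 1, 27 at 2 to 4 and 48 at 5 or more. The cells just outside this threshold had 0, and at the median depth of the Mesp1-zero side a count of 0 still allows up to 111 CPM (3 counts, counting error only), where CPM stands for counts scaled to the same total of nuclear transcripts (counts per 1000000). In summed cells, Mesp1 ranged over the 9 libraries from 106 to 298 CPM, with a median of 168. T had a median of 15.5 transcripts in Mesp1 cells and 2 in Mesp1-zero cells, and 14 and 43 cells respectively entered with a single T transcript. The T level of the sums overlapped, at 268 to 1169 CPM (median 662) on the Mesp1 side and 40.3 to 1667 CPM (median 554) on the Mesp1-zero side. Of the E7.5 cells outside the gate, 37 had T and Foxa2 without Mesp1, 12 had T, Foxa2 and Mesp1, 17 had Mesp1 without T or Foxa2, and 117 had none of the 3. Of 35 cells with at least 2 Foxa2 transcripts, 4 had a Mesp1 transcript. This share was 11.4% (95% Clopper-Pearson interval 3.20% to 26.7%, counting error only) at a median depth of 35212, against 46.2% of cells in the gate.

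Mesp1 cells carried more RNA of paraxial mesoderm and mesenchymal genes and of the Notch ligands Dll1 and Dll3, and less of epithelial genes and of several epiblast genes. Of 5450 genes tested, 175 passed an adjusted p of 0.05 (3.21%), 88 higher (1.61%) and 87 lower (1.6%) on the Mesp1 side. The median log2 fold change over all tested genes was 0.01. The highest values were those of Lefty2, Pcdh19 and Foxc2, and the lowest those of Pou3f1, Cxcl12 and Utf1. With replicates 9 and 11 left out for their depth gap, an alternative chosen after seeing the data, 173 genes passed, 143 of them among the 175. Without the library as a block, 103 passed. With every cell thinned to 10000 transcripts, 1407 genes could be tested and 35 passed, 32 of them among the 175.

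**Figure D2:**
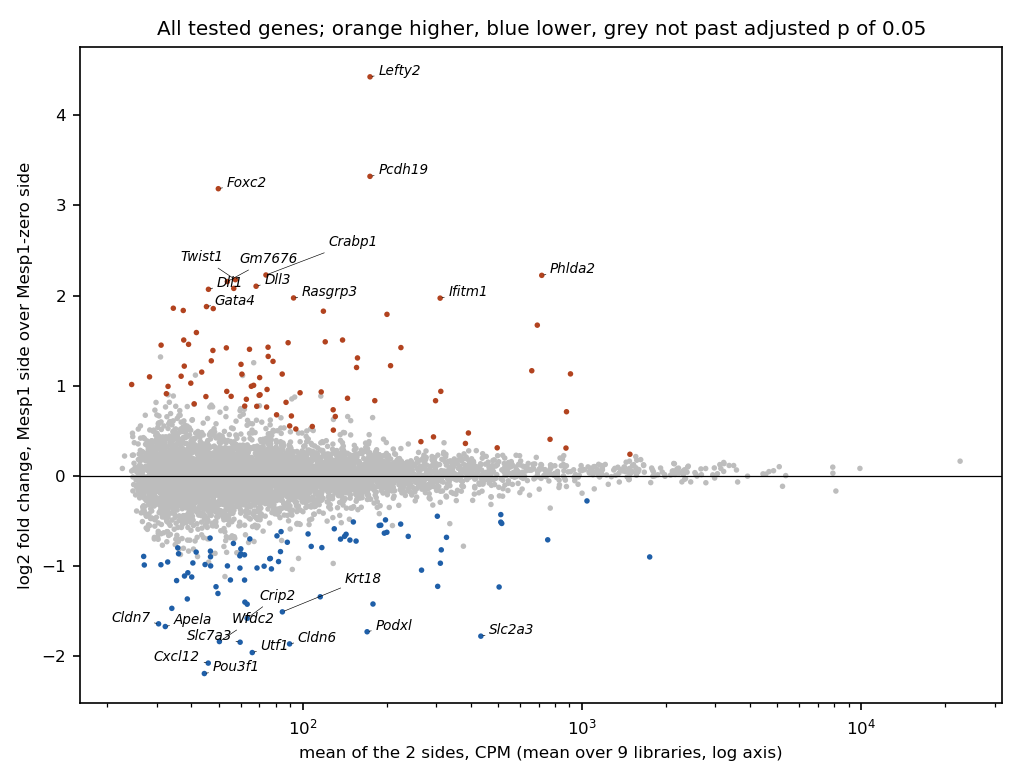
Log2 fold change of the Mesp1 side over the Mesp1-zero side (y axis) against the mean CPM of both sides (x axis, log scale) for 5450 tested genes. Orange points are the 88 higher genes, blue points the 87 lower genes and grey points genes that did not pass; Lefty2 at 4.43 and Pou3f1 at -2.20 are the extremes among the labelled genes.

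Paraxial and presomitic genes formed the group with the highest median. Of 16 listed genes, 7 reached the test and 5 of these were higher, with a median log2 fold change of 2.10. The filter on counts admits a gene that is high enough on 1 side alone. Members that were low on the Mesp1-zero side, such as Foxc2, thus reached the test through the Mesp1 side. This median and its rank among the lists therefore depend in part on the filter and describe the tested members only. Pcdh19, a protocadherin of the presomitic mesoderm, measured 93.5, 256 and 752 CPM (lowest, median, highest of 9 libraries) on the Mesp1 side and 0, 26.9 and 101 CPM on the other. It was higher in 9 of 9 libraries, with a log2 fold change of 3.32 ± 0.32 (SE, edgeR quasi-likelihood test, adjusted p = 1.14e-07). Foxc2, a forkhead factor of paraxial mesoderm, measured 44.3, 82.0 and 182 CPM against 0, 3.86 and 52.8 CPM. Its sides touched only through the highest Mesp1-zero library, and its log2 fold change was 3.19 ± 0.40 (adjusted p = 1.19e-05). Dll3 and Dll1, Notch ligands of the presomitic mesoderm, were higher by 2.10 ± 0.29 and 2.07 ± 0.31 (adjusted p = 2.73e-05 and 7.01e-05), each in 9 of 9 libraries. Dll1 measured 9.84, 62.1 and 195 CPM against 0, 5.35 and 55.2 CPM, so its ranges overlapped widely. Dll1 and Pcdh19 overlap long non-coding genes on the opposite strand (A930024N18Rik and Gm26851), and Pou3f1, Evx1, Dnmt3b, Esrp1, Cdh2, Fn1, Pdgfra, Wnt5a, Lef1, Notch1, Gbx2 and Igf2, named further on, also overlap an annotated model on the opposite strand. Whether reads were counted by strand was not given in the sources used here, so the values of these genes may include reads of their partners, and those of Foxc2, Slc2a3 and Apela may include reads of a model on the same strand. The fifth was Twist1, a basic helix-loop-helix factor of mesenchyme, at 39.4, 89.4 and 159 CPM against 0, 15.3 and 56.7 CPM (2.18 ± 0.29, adjusted p = 1.92e-05). Aldh1a2, which makes retinoic acid, and Fst, which binds activin, did not pass (1.25 and 0.21, adjusted p = 0.132 and 0.731).

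Several lineage genes of low abundance fell below the filter on counts and were read from the fit without that filter, in which 438 of 18963 genes passed (2.31%), 206 higher (1.09%) and 232 lower (1.22%). Of 112 listed genes below the filter, 17 were higher and 11 lower in that fit. Foxc1, the partner of Foxc2, measured 27.1, 77.5 and 214 CPM on the Mesp1 side and 0, 1.90 and 13.7 CPM on the other. Pcdh8, a protocadherin of the paraxial mesoderm, measured 19.1, 46.0 and 117 CPM against 0, 1.90 and 15.4 CPM. Mesp2, the neighbour and close relative of Mesp1, measured 4.39, 14.8 and 75.7 CPM against 0, 2.11 and 5.56 CPM. Lhx1, a LIM homeodomain factor of the streak and its mesoderm, measured 21.6, 55.1 and 268 CPM against 0, 5.35 and 22.1 CPM. The fit without the filter gave adjusted p = 1.14e-34 for Foxc1, 1.32e-19 for Pcdh8, 3.21e-10 for Mesp2 and 2.81e-22 for Lhx1. All were higher in 9 of 9 libraries. Adjusted p-values of that fit could be far smaller than filtered ones at a similar change. Sox2 gave -2.07 with 1.42e-15 there, and -2.11 with 1.13e-05 in the filtered edgeR fit without replicate 9. Sox3 gave 1.54e-09 and 0.000395 in the same order. P-values of the fit without the filter should therefore not be ranked against filtered ones. Ripply2, a target of MESP2 in somite formation, had 79 transcripts on the Mesp1 side and 1 on the other in all. Msgn1, another presomitic factor, was at 0 in the median library of either side and did not pass.

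Among the factors of nascent mesoderm, Mesp2 and Lhx1 are described above and fell below the filter. Of 9 tested genes of 13 listed, 3 were higher and none lower, with a median of 0.59. Snai1, a repressor of the epithelial state, measured 51.0, 94.4 and 213 CPM against 8.34, 32.1 and 156 CPM. It was higher in 9 of 9 libraries (1.43 ± 0.21, adjusted p = 7.44e-05), and the one Mesp1-zero sum above 100 CPM was that of replicate 9. Evx1, a homeobox factor of the posterior streak, was higher by 0.99 ± 0.23 (adjusted p = 0.0129), in 9 of 9 libraries. Mixl1, a homeobox factor of mesendoderm, was higher by 0.96 ± 0.25 (adjusted p = 0.0288), in 7 of 9. Evx1 lost the call in 4 of 24 alternatives and Mixl1 in 11 of 24. Both lost it when cells with markers of other types were left out (Evx1 0.75, adjusted p = 0.235; Mixl1 0.69, adjusted p = 0.351). Tbx6, the T-box factor of paraxial fate, measured 14.8, 73.0 and 169 CPM against 0, 36.1 and 89.4 CPM and missed the threshold (1.11 ± 0.32, adjusted p = 0.052). Eomes, a T-box factor of the streak, measured 10.8, 206 and 394 CPM against 13.4, 54.7 and 405 CPM (0.38 ± 0.28, adjusted p = 0.696). Its sides covered the same range, and it was higher in 5 of 9 libraries.

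Lateral, cardiac and extraembryonic mesoderm genes gave a mixed picture. Of 17 listed genes 7 were tested and 2 were higher, with a median of 0.62. Gata4, a GATA factor of cardiac and endodermal tissue, measured 18.9, 69.8 and 83.7 CPM against 0, 9.70 and 156 CPM (1.88 ± 0.37, adjusted p = 0.00233), higher in 8 of 9 libraries. Myl7, an atrial myosin light chain, was higher by 1.59 ± 0.41 (adjusted p = 0.0293) in 7 of 9, and was lost without replicate 6 (adjusted p = 0.0849) and with DESeq2 (adjusted p = 0.496). Hand1, a factor of lateral and extraembryonic mesoderm, measured 64.8, 195 and 327 CPM against 19.0, 112 and 686 CPM, and its widest spread lay among the Mesp1-zero sums (0.64 ± 0.38, adjusted p = 0.573). Below the filter, Foxf1, a forkhead factor of lateral mesoderm, was higher (57.2 ± 32.1 against 16.6 ± 33.2 CPM, SD, n = 9; adjusted p = 1.33e-07 without the filter). Tdo2 and Ahnak were lower there (adjusted p = 0.00833 and 1.66e-09). Tdo2 had 0 transcripts on the Mesp1 side and 23 in all on the other, where 4 of 9 libraries were at 0.

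Most epithelial genes that reached the test were lower. Of 17 listed genes 11 were tested, of which 8 were lower and none higher, with a median log2 fold change of -1.16. Members that were low on the Mesp1 side, such as Cldn7, may have reached the test through the Mesp1-zero side. This count and median thus depend in part on the filter and describe the tested members only. Cldn4, Crb3, Grhl2, Ocln, Spint1 and Rab25 fell below the filter and did not pass in the fit without it. Cdh1, the E-cadherin of adherens junctions, measured 19.5, 89.1 and 159 CPM on the Mesp1 side and 104, 243 and 427 CPM on the other. It was lower in 9 of 9 libraries and fell by 1.43 on the log2 scale (SE 0.19, adjusted p = 1.92e-05). Cldn6, a tight-junction claudin, measured 8.99, 34.9 and 75.7 CPM against 35.2, 120 and 310 CPM. It was lower in 8 of 9 libraries (-1.87 ± 0.20, adjusted p = 9.44e-07), the exception being replicate 9. Cldn7, another claudin, was lower by a similar amount (-1.65 ± 0.31, adjusted p = 0.00171). Epcam, an epithelial adhesion molecule, measured 19.5, 35.1 and 59.2 CPM against 0, 67.4 and 187 CPM (-1.16 ± 0.23, adjusted p = 0.00292). Esrp1, an epithelial splicing regulator, Krt18, a keratin, Spint2, a membrane protease inhibitor, and F11r, a junctional adhesion molecule, gave -1.47, -1.51, -1.16 and -0.84 (adjusted p = 0.00287, 0.00556, 0.00563 and 0.00991). Krt8, the partner keratin of Krt18, did not pass (-1.04, adjusted p = 0.0893), nor did Lsr (-0.08, adjusted p = 0.948).

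Mesenchymal genes were the counterpart. Of 15 listed genes 9 were tested, of which 6 were higher and none lower, with a median of 1.43. The limit set by the filter holds for this count and median too. Cdh2, the N-cadherin of mesenchymal and neural cells, measured 96.0, 141 and 175 CPM on the Mesp1 side and 0, 38.4 and 72.3 CPM on the other. It was higher in 9 of 9 libraries with no overlap (1.48 ± 0.20, adjusted p = 1.92e-05), and 5 of all tested genes (0.0917%) had sides that did not overlap in this direction. Fn1, the fibronectin of the extracellular matrix, measured 638, 1034 and 1531 CPM against 80.2, 261 and 870 CPM (1.67 ± 0.21, adjusted p = 1.17e-05). Pdgfra, the PDGF-AA receptor of migrating mesoderm, measured 65.3, 147 and 311 CPM against 5.35, 36.1 and 248 CPM (1.83 ± 0.24, adjusted p = 1.92e-05). Mmp14, a membrane metalloproteinase, was higher by 0.85 ± 0.21 (adjusted p = 0.0162). Vim, a mesenchymal intermediate filament, measured 110, 247 and 369 CPM against 48.5, 246 and 799 CPM and did not pass (-0.08, adjusted p = 0.988). Zeb2 and Cdh11 also did not pass (0.06 and 0.32, adjusted p = 0.999 and 0.684).

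**Figure D3:**
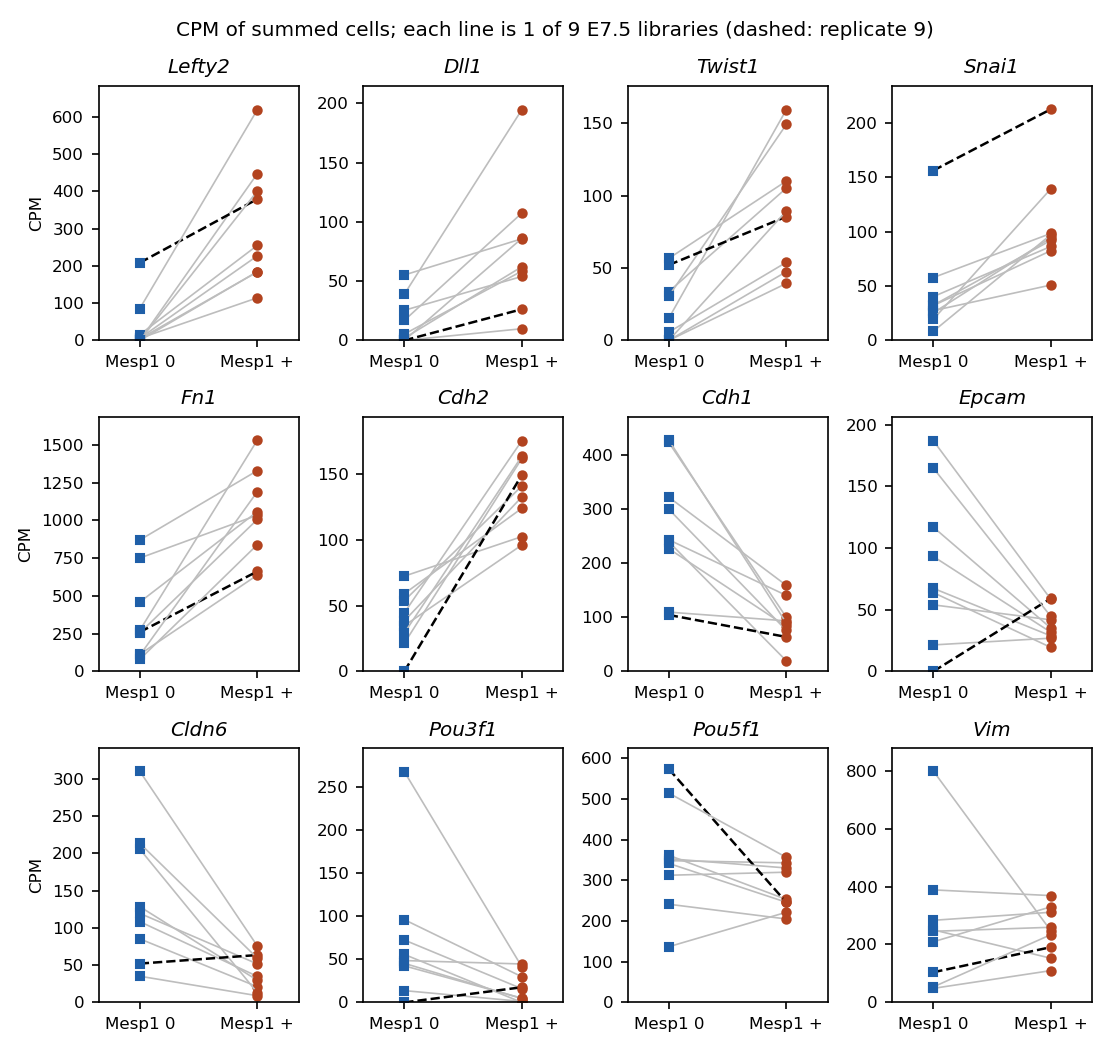
CPM of summed cells (y axis, from 0) on the Mesp1-zero side (blue squares) and the Mesp1 side (orange circles) for 12 genes, with a line for each of 9 E7.5 libraries; the dashed line is replicate 9. Cdh2 is the gene drawn here whose sides do not overlap, whereas Pou5f1 and Vim cross in several libraries.

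The windows printed above gave a description of the E-box core. Of the 19 lower genes that are named or listed here, 13 matched an entry in the RefSeq promoter table, and 10 of these held CACCTG or CAGGTG in a window. Of the 28 higher genes, 19 matched and 4 held it. Over 27025 genes in the table the share was 19.4%, counting any of a gene's start sites, and over 32851 windows it was 17.2%. Epcam held the motif at 2 places and Spint2 at 3. The T-box letters TCACACCT, or AGGTGTGA on the other strand, stood in 1.30% of genes and in none of these 13 and 19. The genes were picked by how they moved, so these shares carry no test, and a match is neither a binding site nor a cause.

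Genes of the epiblast and of pluripotency split. Of 16 listed genes 13 were tested, 5 were lower and 1 higher, with a median of -0.72. Pou3f1, a POU factor of the anterior epiblast and neural plate, measured 0, 15.9 and 44.5 CPM against 0, 48.5 and 267 CPM (-2.20 ± 0.30, adjusted p = 2.73e-05). Utf1, a chromatin factor of pluripotent cells, measured 2.25, 24.6 and 80.2 CPM against 0, 64.7 and 369 CPM (-1.96 ± 0.32, adjusted p = 0.000257). Slc7a3, a cationic amino acid transporter, Nanog, a homeobox pluripotency factor, and Dnmt3b, a de novo DNA methyltransferase, gave -1.85, -1.03 and -0.90 (adjusted p = 6.09e-05, 0.0031 and 0.000482). Nanog was lower in 9 of 9 libraries, at 8.91, 33.2 and 103 CPM against 33.4, 66.3 and 156 CPM. Pou5f1, the core pluripotency factor Oct4, measured 205, 253 and 356 CPM against 137, 348 and 573 CPM. It did not pass (-0.17 ± 0.12, adjusted p = 0.654), and its difference turned to 0.14 when cells were thinned to 10000 transcripts. Sox2, a factor of epiblast and neural tissue, fell below the filter, at 0, 14.4 and 79.1 CPM against 0, 48.5 and 316 CPM. It was lower in 8 of 9 libraries and higher in none (-2.07 ± 0.24, adjusted p = 1.42e-15 without the filter), and Sox3 behaved alike (-1.73, adjusted p = 1.54e-09). Tdgf1, a coreceptor for NODAL, was the higher gene of the list, at 21.6, 195 and 512 CPM against 5.75, 60.0 and 365 CPM (1.31 ± 0.22, adjusted p = 0.000482).

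Genes of the caudal epiblast did not move as a group. Of 16 listed genes 8 were tested and 1 was higher, with a median of 0.03. Hoxb1, an anterior Hox gene first transcribed in the posterior streak, measured 46.0, 351 and 525 CPM against 0, 137 and 320 CPM (1.42 ± 0.27, adjusted p = 0.00203). It was higher in 8 of 9 libraries, but with DESeq2 it did not pass (adjusted p = 0.161). Nkx1-2, a homeobox gene of the caudal lateral epiblast, measured 6.49, 28.6 and 162 CPM against 0, 104 and 301 CPM (-0.92 ± 0.32, adjusted p = 0.145). Sox2 and Sox3 belong to this list too and were lower without the filter, as given above. Without replicate 9, both reached the test and passed (-2.11 and -1.75, edgeR adjusted p = 1.13e-05 and 0.000395), so that 2 of 10 tested members were lower. Of 17 Hox and Cdx genes, 3 were tested and Hoxb1 was the member that passed. Below the filter, Cdx4 was higher (12.1 ± 11.4 against 2.26 ± 2.83 CPM, SD, n = 9, adjusted p = 0.00495) and Hoxb6 lower (adjusted p = 0.0158). Hoxb6 was at 0 in 6 of 9 libraries on either side.

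Signalling genes differed in a minority of the members of each pathway tested, apart from Notch. Of 11 tested NODAL and BMP genes of 23 listed, 3 were higher and none lower (median 0.21). Lefty2, a secreted inhibitor of NODAL, had the largest change among the named genes that passed the filter, at 114, 255 and 619 CPM against 0, 5.71 and 208 CPM (4.43 ± 0.31, adjusted p = 3.62e-10), higher in 9 of 9 libraries. The Mesp1-zero sum of 208 CPM was that of replicate 9 and rested on 19192 transcripts. Bmp7, a BMP ligand, passed narrowly (1.01, adjusted p = 0.0384). It lost the call in 11 alternatives and kept it in 4, and stood at 0.13 (adjusted p = 0.93) when cells with Foxa2 were kept. Nodal itself, at 11.8 ± 14.7 against 22.6 ± 28.2 CPM (SD, n = 9), was below the filter. Without the filter, Bmper, a secreted BMP modulator, was higher in 9 of 9 libraries (8.11, 19.7 and 64.9 CPM against 0, 3.84 and 7.81 CPM, adjusted p = 2.37e-07). The ligand Bmp2 was lower in that fit (-1.30, adjusted p = 0.00321), but it was lower in 5 libraries and higher in 3. Of 11 tested WNT genes of 19 listed, 3 were higher (median 0.24). They were Wnt5a, a non-canonical ligand (1.86 ± 0.28, adjusted p = 0.000112), Frzb, a secreted WNT antagonist (1.40 ± 0.22, adjusted p = 0.000132), and Lef1, a nuclear effector (1.51 ± 0.21, adjusted p = 2.73e-05). The WNT target Axin2 did not pass (0.12, adjusted p = 0.955). Without the filter, the ligand Wnt3 and the antagonist Dkk1 were higher (1.39 and 1.17, adjusted p = 0.00818 and 0.043). None of 10 tested FGF pathway genes of 20 listed passed (median 0.20), the nearest being the receptor Fgfr1 (0.37, adjusted p = 0.103). Of 6 tested Notch genes of 12 listed, 3 were higher (median 0.38), namely Dll1, Dll3 and the receptor Notch1 (0.99, adjusted p = 0.0432), and Notch1 was lost in 15 of 23 alternatives. Lfng, which modifies Notch receptors, was higher without the filter (1.88, adjusted p = 0.0482).

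Guidance and migration genes moved both ways. Of 15 tested genes of 22 listed, 2 were higher and 2 lower (median 0.06). Epha4, an ephrin receptor, measured 106, 160 and 261 CPM against 26.7, 58.4 and 156 CPM (1.49 ± 0.18, adjusted p = 4.18e-06), and Pdgfra is described above. Cxcl12, the chemokine ligand of CXCR4, was lower, at 0, 19.7 and 41.3 CPM against 0, 75.1 and 204 CPM (-2.08 ± 0.33, adjusted p = 0.000196). Apela, a peptide ligand of the apelin receptor, was lower as well (-1.68 ± 0.33, adjusted p = 0.00233), while its receptor gene Aplnr missed the threshold (1.12 ± 0.32, adjusted p = 0.0503). The PDGF ligand gene Pdgfa was at 47.6 ± 28.2 against 64.2 ± 35.0 CPM (SD, n = 9; adjusted p = 0.253). Of 8 tested matrix genes of 20 listed, Fn1 was the one that passed (median -0.10). Below the filter, Lama1, a laminin chain of the basement membrane, was higher (adjusted p = 3.80e-08), and Col1a1, Col1a2 and Hapln1 were lower (adjusted p = 0.0054, 0.00924 and 2.95e-09). Col1a1 was nevertheless higher in 4 libraries and lower in 3, with Mesp1-zero sums at 35.3 ± 86.2 CPM (SD, n = 9). Hapln1 was at 0 in 5 of 9 libraries on either side and lower in 4.

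The cell-cycle and dissociation-response genes that reached the test did not separate the sides. None of 22 S and G2/M genes passed, and their log2 fold changes had a median of -0.0011. None of 5 tested immediate early and heat shock genes of 14 listed passed (median 0.16). Without the filter Fos was higher (27.4 against 8.64 CPM, adjusted p = 0.00955), and Fosb, at 28 against 2 transcripts in all, did not pass (2.90, adjusted p = 0.0563).

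**Figure D4:**
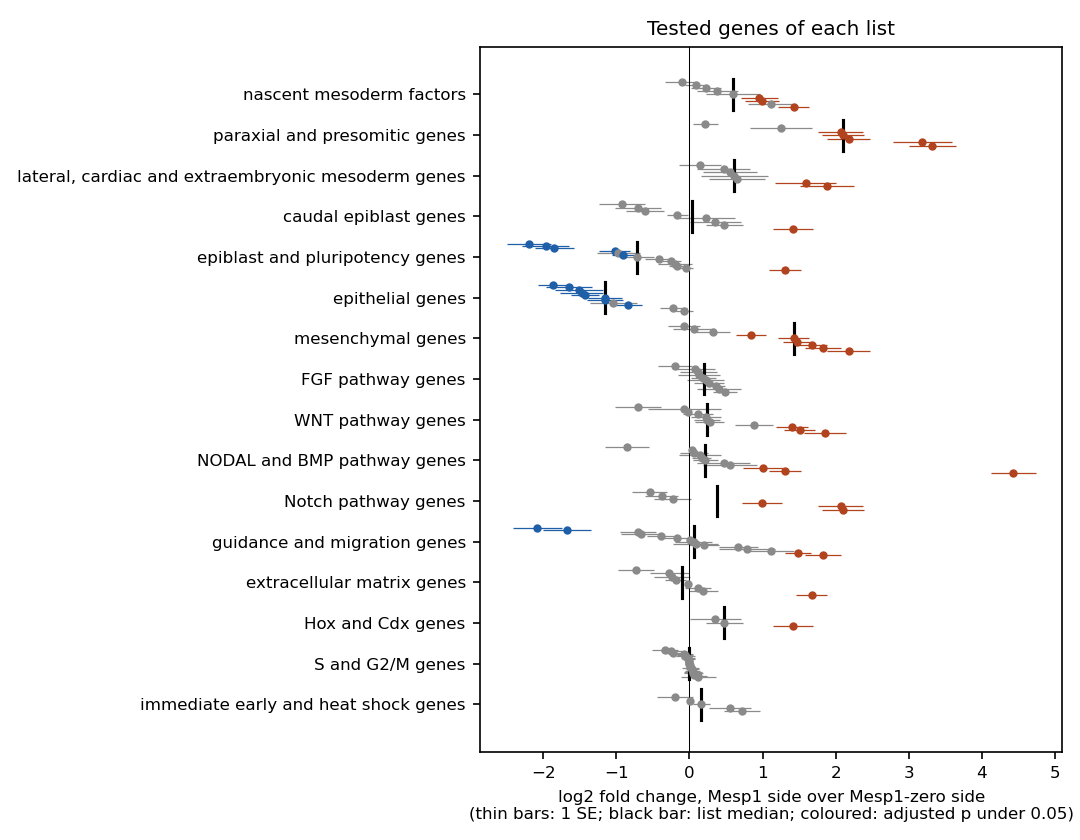
Log2 fold change of the Mesp1 side over the Mesp1-zero side (x axis) for the tested members of 16 gene lists (rows), with thin bars of 1 SE where one was defined and a black bar at each list's median. Coloured points passed an adjusted p of 0.05; the epithelial list has its median at -1.16 and the paraxial list at 2.10. Medians cover tested members only and depend in part on the filter on counts.

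The remaining strongly differing genes belonged to no list. Crabp1, a retinoic acid binding protein, measured 78.7, 99.7 and 214 CPM against 0, 16.7 and 89.9 CPM (2.23 ± 0.31, adjusted p = 2.73e-05). Phlda2, an imprinted regulator of growth, measured 561, 1070 and 1809 CPM against 88.7, 144 and 1146 CPM (2.22 ± 0.25, adjusted p = 2.48e-06). Ifitm1, an interferon-inducible membrane protein of early mesoderm, Rasgrp3, an activator of RAS, and Gm7676 gave 1.97, 1.97 and 2.16 (adjusted p = 1.12e-07, 1.57e-05 and 6.13e-05). Gm7676 is a processed pseudogene, so its reads may belong to a parent gene and its value is uncertain. On the lower side, Slc2a3, a glucose transporter, measured 77.8, 205 and 421 CPM against 208, 570 and 1532 CPM, lower in 9 of 9 libraries (-1.78 ± 0.17, adjusted p = 1.12e-07). Wfdc2, a secreted epithelial protein, was lower in 9 of 9 as well (-1.84 ± 0.25, adjusted p = 2.30e-05). Podxl, an apical sialomucin, and Crip2, a LIM-domain protein, gave -1.73 and -1.58 (adjusted p = 4.02e-06 and 6.95e-05).

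Shares of cells with a transcript were compared at equal depth per cell. With every cell thinned to 2000 transcripts, the share of cells with a transcript was compared for 12 genes over 9 libraries, with an exact two-sided sign-flip permutation test whose smallest p is 0.00391. Lefty2 was found in 27.4% ± 23.0 of Mesp1 cells and 2.78% ± 8.33 of Mesp1-zero cells (SD, n = 9), higher in 8 libraries and lower in none, with exact p = 0.00781 and adjusted p = 0.0938. Hoxb1 was found in 39.7% against 17.1% (exact p = 0.0156, adjusted p = 0.0938), and Cdh1 in 10.6% against 29.98% (exact p = 0.043, adjusted p = 0.129). Snai1 also had an exact p under 0.05 (0.0313, adjusted p = 0.125). No gene passed after adjustment over the 12, 4 did without replicate 9, and at 10000 transcripts per cell 8 did, over 8 libraries with 84 and 90 cells in place of 101 and 118, so that depth, libraries and cells changed together. There Lefty2 was found in 52.0% against 1.47% and Cdh1 in 40.3% against 82.6% (both adjusted p = 0.0187, exact permutation test). Unthinned, Lefty2 was found in 66.7% against 21.4% and Cdh1 in 70.6% against 73.7%, cells of the Mesp1 side being deeper. How much of these shares came from free RNA was not tested.

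Grouped by their number of Mesp1 transcripts, the cells gave graded pooled levels for some genes and not for others. These values are a description: they pool cells over the 9 libraries, and the median depth rose with the bin, from 26960 at 0 through 32570 at 1 and 39600 at 2 to 4 to 45520 at 5 or more. Lefty2 was at 11.1 CPM in 118 cells with 0 Mesp1 transcripts, 62.9 in 32 cells with 1, 269 in 25 cells with 2 to 4 and 392 in 44 cells with 5 or more. Sox2 was at 97.8, 49.9, 6.43 and 4.75 CPM in the same order, and Cdh1 at 253, 190, 65.3 and 56.0 CPM. Cells with 1 Mesp1 transcript thus lay between the outer bins for these genes. Nkx1-2 was as high in cells with 1 Mesp1 transcript (153 CPM) as in cells with 0 (153 CPM), and lower at 2 to 4 and at 5 or more (76.1 and 40.3 CPM). Foxc2 stood at 10.8, 72.1, 83.6 and 95.4 CPM, so its step lay between 0 and 1. Tbx6 was highest at 2 to 4 (149 CPM, against 87.3 at 5 or more), as was T (984 against 770 CPM). Eomes had no order, at 111, 204, 54.6 and 212 CPM. Hand1 (180, 78.6, 247 and 232 CPM) and Pou5f1 (291, 310, 232 and 250 CPM) were not graded either.

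**Figure D5:**
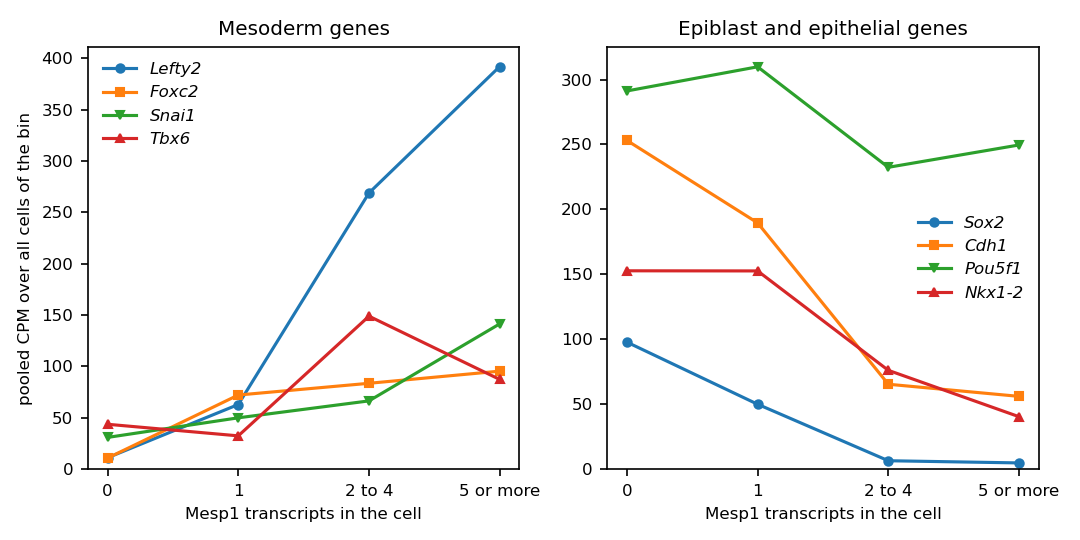
Pooled CPM (y axis, from 0) over all cells of 9 libraries with 0, 1, 2 to 4 or 5 or more Mesp1 transcripts (x axis). Lefty2 climbs from 11.1 to 392 CPM while Sox2 drops from 97.8 to 4.75 CPM; the points carry no error because cells are not replicates.

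The name proposed for the Mesp1 side was set beside its markers, which were chosen with earlier results of these data known and are no independent check. Of 5 further markers of nascent mesoderm, Lefty2, Snai1, Mixl1 and Pdgfra were higher and Tbx6 missed the threshold. The call of Mixl1 was lost in 11 of 24 alternatives. In the longer list of nascent mesoderm factors, 3 of 9 tested genes were higher (median 0.59). The summed level of the 5 markers was 505 to 1083 CPM (median 867) on the Mesp1 side and 38.8 to 677 CPM (median 196) on the other. The Mesp1-zero side did not hold its name throughout. Its summed level of 5 further markers of the caudal streak was 107 to 413 CPM (median 328), against 119 to 322 CPM (median 229) on the Mesp1 side, and none of the 3 tested markers passed. Of its 126 cells, 59 had a Sox2 transcript and 67 had none, at median depths of 30436 and 19466. It is therefore called the Mesp1-zero side here.

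Mesp1-zero cells without Sox2 carried more RNA of Vim, Fn1 and Igf2, and of some lateral mesoderm and blood-vessel genes that were not tested. In 6 libraries with at least 3 cells of each kind (replicates 1 to 4, 6 and 12, with 48 cells with Sox2 and 59 without), 21 of 3016 tested genes passed (0.696%), 3 higher in cells with Sox2 (0.0995%) and 18 lower (0.597%). None of 3 tested nascent mesoderm, 2 paraxial and 1 lateral list members passed. Below the filter, Tbx6 averaged 69.4 CPM with Sox2 and 56.9 without, and Snai1 28.4 and 29.0. Gata4, Gata6 and Myl7, also below it, were lower with Sox2 in 6 of 6 libraries. Cldn6 measured 147, 158 and 501 CPM in cells with Sox2 and 2.47, 46.1 and 157 CPM in cells without (2.12 ± 0.37, adjusted p = 0.0082). Gbx2, a homeobox gene of the posterior epiblast, and L1td1, an RNA-binding protein of pluripotent cells, gave 1.80 and 1.76 (adjusted p = 0.0191 and 0.018). Vim measured 8.63, 93.9 and 167 CPM with Sox2 and 329, 572 and 967 CPM without, lower in 6 of 6 libraries (-2.59 ± 0.24, adjusted p = 5.02e-05). Igfbp4, a binding protein of insulin-like growth factors, and Ppic, a cyclophilin, were also lower in all 6 libraries (-2.54 and -2.53, adjusted p = 5.77e-05 and 6.14e-05). Fgf3, a ligand of the streak, was at 0, 10.4 and 74.4 CPM with Sox2 and 18.5, 152 and 217 CPM without (-3.20 ± 0.50, adjusted p = 0.00413). Igf2, an imprinted growth factor, measured 22.4, 86.8 and 785 CPM with Sox2 and 332, 803 and 2438 CPM without (-3.03, adjusted p = 0.0151), and Fn1 was lower in 6 of 6 (-2.13, adjusted p = 0.00058). The counts were 11 without the block, 2 after thinning to 2000 transcripts, 12 to 43 with a library left out, 12 without replicate 1 or 4, 13 without replicate 2, 38 without replicate 6 and 43 without replicate 12.

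Markers of blood and endothelium moved with that split. Tal1, a factor of blood progenitors, was at 0 CPM in all 6 libraries of cells with Sox2 and at 0, 78.6 and 408 CPM in cells without. Kdr, the VEGF receptor of endothelial and blood progenitors, was at 0, 2.56 and 11.5 CPM against 0, 72.7 and 653 CPM, and Etv2, a factor of the same progenitors, at 2.56, 7.52 and 18.6 CPM against 6.98, 65.6 and 500 CPM. These genes were below the filter of the split and were not tested there. Over the main comparison, the summed level of 10 blood and endothelial markers was 27.0 to 385 CPM on the Mesp1 side and 0 to 645 CPM on the Mesp1-zero side (means 123 and 223 CPM). The globin Hba-x was at 0 on both. Without the filter, Tal1, Gata1 and Runx1 were lower on the Mesp1 side (-3.10, -2.43 and -1.95, adjusted p = 7.56e-16, 0.00176 and 0.00101). Tal1 was at 0 in 5 libraries of the Mesp1 side and 4 of the other. Etv2, Lmo2, Hbb-bh1, Pecam1 and Gfi1b did not pass in that fit. Cells with at least 3 of these markers numbered 17 of 108 and 15 of 126. The visceral endoderm sum was 97.3 to 289 against 125 to 425 CPM, of which Apoe made up 97.8% and 98.0%, and Afp was at 0 on both sides. The extraembryonic ectoderm sum was 0 to 19.9 against 0 to 556 CPM (means 9.28 and 91.2 CPM), led by Rhox5 on the Mesp1-zero side. Its defining marker Elf5 was at 0 on the Mesp1 side. Rhox5, Tfap2c and Wnt7b were lower on the Mesp1 side without the filter (-4.23, -1.77 and -3.65, adjusted p = 1.35e-12, 0.0195 and 0.0499). Rhox5 had 6 against 115 transcripts in all and was at 0 in 6 Mesp1-zero libraries. The sum of definitive endoderm and axial markers was 0 to 165 against 0 to 626 CPM (means 55.1 and 144.6 CPM), of which Trh made up 75% and 80.8%. Trh and Hhex were lower on the Mesp1 side without the filter (-1.31 and -2.63, adjusted p = 5.57e-07 and 0.00809). The anterior and neural ectoderm sum was 41.3 to 181 against 0 to 403 CPM (means 132 and 189 CPM). The part of these cells in the main comparison was not tested beyond the alternative that follows. That alternative left out cells with 3 or more markers of visceral endoderm, of extraembryonic ectoderm, or of blood and endothelium. Definitive endoderm, axial and neural ectoderm markers played no part in it. With those cells left out, 127 genes passed the main comparison. The nascent mesoderm count then fell from 3 to 1 and the lateral count from 2 to 1, while the epithelial count was 8 and the paraxial count 5. With the Mesp1-zero side limited to cells with Sox2 or Pou5f1, 212 genes passed, 156 of them among the 175.

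At E6.75 the same gate gave 19 Mesp1 and 73 Mesp1-zero cells, and 2 of 6 libraries (replicates 2_13 and 2_14) had at least 3 on each side. Of the 175 genes called at E7.5, 165 (94.3%) differed in the same direction in the mean of those libraries, against 59.2% of all 5450 genes. Stage, way of collecting, trimming and protocol version changed together and cannot be told apart. A fit of the stage-by-side interaction over 11 libraries called 40 of 7993 genes (0.5%), 5 higher (0.0626%) and 35 lower (0.438%), and 10 of the 175 were among them. All 40 had the larger difference between sides at E6.75. Of the genes whose sides differed at E7.5, Snai1 was at 328 and 209 CPM in the E6.75 Mesp1 sums and 17.3 and 20.6 CPM in the Mesp1-zero sums, so that its difference was smaller at E7.5 by 2.25 ± 0.41 on the log2 scale (adjusted p = 0.00288). Mixl1 was at 691 and 368 against 12.1 and 30.1 CPM at E6.75 (interaction -3.39 ± 0.47, adjusted p = 6.40e-05), where its E7.5 means were 90.6 and 58.6 CPM. Pdgfra, Cdh2, Frzb and Gata4 gave interactions of -3.75, -2.46, -3.21 and -3.21 (adjusted p = 0.00542, 0.0162, 0.00133 and 0.0172).

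Other genes differed between sides at E6.75 and not at E7.5. Sp5, a WNT target, was at a mean of 201 CPM in the Mesp1 sums and 3.96 in the Mesp1-zero sums at E6.75, and at 104 and 113 CPM at E7.5 (interaction -4.99 ± 0.55, adjusted p = 2.09e-06). Cdh11, a mesenchymal cadherin, was at 175 against 2.77 CPM at E6.75 and 79.5 against 64.9 CPM at E7.5 (interaction -5.11, adjusted p = 8.14e-06). In the Mesp1-zero sums alone, Pdgfra, Cdh2 and Snai1 were at 2.45, 5.76 and 18.9 CPM at E6.75 and at 61.3, 39.2 and 44.4 CPM at E7.5, values set side by side without a test. Lefty2 did not pass the interaction (1.62 ± 0.49, adjusted p = 0.232), at 516 and 326 against 81.1 and 41.2 CPM. The interaction rests on 2 E6.75 libraries: it called 16 genes without either of them, when the lone E6.75 library is assumed to vary like the E7.5 libraries, 5 without the library block and 0 after thinning to 2000 transcripts, where 26 genes had an unadjusted p under 0.05.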

How the data were processed

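Single-cell libraries were made by CEL-Seq2 at E6.75 and by a version of it with smaller volumes (mCEL-Seq2) at E7.5, per the labels. The submitters' processing notes name bcl2fastq 2.17.1.14 and BWA 0.6.2-r126. The genome build, annotation, counting program and use of strand are not given in the sources used here. The deposited files hold expected counts: every value equals -4096 ln(1 - k/4096) of a whole number k of observed UMIs, a correction for colliding UMIs, without normalization for depth. Each file has 192 barcode columns, of which the 96 that carried 96.6% to 100.0% of the transcripts were used. The table of 192 barcode sequences was not used.

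Expected counts of 22997 nuclear genes (without 74 spike-ins and 22 mitochondrial genes) were summed per library and side and rounded. They were tested with edgeR 4.0.16 in R 4.3.3 (TMM, filterByExpr, quasi-likelihood F test, Benjamini-Hochberg adjustment over all tested genes, threshold 0.05) with the library as block, since both sides come from the same library. T, Mesp1 and Foxa2, and Sox2 in its own split, were not tested. The SE is the absolute log2 fold change divided by the square root of F. DESeq2 1.42.0 was an alternative. No doublet caller was run, and leaving out cells above 3 times the median depth was an alternative. In counts simulated for the main comparison (5283 genes), 95.2% of 84 genes changed by 1 on the log2 scale and 100% of 90 changed by 2 were called, with 8 false calls. Each gene was simulated with the same mean level in every library, and changed genes that missed the filter are not in these shares. The shares therefore do not show how often such changes were missed in the data. There Aldh1a2, Tbx6 and Krt8 changed by more than 1 in size and did not pass.

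Named genes were the 12 highest and 12 lowest log2 fold changes past the threshold with at least 20 CPM on the higher side and 1 sign in at least 3 of 4 libraries. Each further comparison gave up to 5 highest and 5 lowest by the same rule, except that the interaction had no rule of sign. The 12 genes of the cell shares were named as well, with list members that had the smallest p or a role that needed naming. Members and gene lists were chosen with earlier results of these data known. The closing section gives the alternatives, among them other depth minima, thinning, other gates and each library left out.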

Additional observations from a re-analysis of the deposited data

Results flagged for a closer look

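Replicate 9 stood apart from the other 8 libraries in 3 of the 24 genes checked. The log2 difference between its sides (pseudocount 10 CPM) was 2.595 for Utf1, where the others lay between -2.81 and -0.15. It was 2.172 for Slc7a3 (others -2.37 to -0.08) and 2.025 for Podxl (others -3.05 to -0.59). In each case the gap to the nearest library, divided by the whole range, exceeded 0.493, a limit that chance passes in about 1 of 20 groups. The Mesp1-zero side of replicate 9 held 3 cells and 19192 transcripts.

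The difference between sides changed with stage in the following genes, by the edgeR interaction test, each as E7.5 minus E6.75 on the log2 scale. Jakmip2 gave 6.791 (adjusted p = 0.00942), Mid1ip1 2.379 (adjusted p = 9.24e-05), Fgf5 1.927 (adjusted p = 0.00569), Pvrl1 1.78 (adjusted p = 0.0324) and Chaf1b 1.506 (adjusted p = 0.0259). Fgf5, a growth factor of the epiblast, was at 48.7 CPM in Mesp1 and 215 CPM in Mesp1-zero cells at E6.75, and at 34.0 and 43.5 CPM at E7.5. Tal1 gave -10.073 (adjusted p = 4.00e-05), Irx5 -6.983 (adjusted p = 0.00223), Fgf3 -6.639 (adjusted p = 0.000312), Kdr -6.356 (adjusted p = 0.00569) and Cyp26a1 -5.678 (adjusted p = 0.000109). Cyp26a1, which breaks down retinoic acid, was at 224 against 3.78 CPM at E6.75 and at 58.5 against 39.4 CPM at E7.5. Kdr was at 63.5 against 0.396 CPM at E6.75 and at 59.9 against 55.9 CPM at E7.5. Tal1 was at 0 and 47.6 CPM in the E6.75 Mesp1 sums, so its difference there rests on replicate 2_14. Tal1, Irx5 and Jakmip2 had an E6.75 side at 0 CPM, so their fitted values depend on the prior count and are no bounds. Stage, collection and protocol version cannot be told apart.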

How the results depend on the processing

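The 175 calls of the main comparison became 438 with no filter on low counts, 103 with no replicate block, 94 with T at 2 or more, 35 with cells thinned to 10000 transcripts and 6 at 2000, where 1407 and 236 genes reached the test. Leaving out 1 library gave 131 to 208. The other alternatives, DESeq2 (165) among them, stayed within 1.5 times. The 40 stage calls became 23 with DESeq2, 85 with no filter, 5 with no replicate block and 0 after thinning (26 at an unadjusted p under 0.05), and 16 to 50 with a library left out. The 21 calls of the Sox2 split became 214 with no filter, 11 with no replicate block, 9 at a minimum of 10000 transcripts per cell and 2 after thinning, and 12 to 43 with a library left out. For the cell shares, 0 of 12 genes passed at 2000 transcripts, 5 at 5000, 8 at 10000 and 2 unthinned, and 0 to 4 with a library left out. The pairing is by library, which held both sides. Pou5f1 turned from -0.17 to 0.14 at 10000 transcripts, and Hand1 from 0.64 to -0.091 without cells carrying markers of other types. Neither had passed. Of 1092 values of 47 called genes under the alternatives, 1023 kept direction and call, 69 lost the call and 0 reversed. Genes that did not reach the test are not in this tally: 10 of the 47 reached it at 10000 transcripts and 3 at 2000. Of 22997 nuclear genes, 5450 reached the test. The causes of these changes were not tested.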

Other observations

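Of the 175 called genes, 136 stood in no list, 65 higher and 71 lower on the Mesp1 side. The genes of this paragraph and the next were chosen after their values were seen. Hmga2, a chromatin architectural protein of embryonic cells, was higher in 9 of 9 libraries without overlap (log2 fold change 1.17 ± 0.08 SE, edgeR adjusted p = 3.62e-10). Greb1, Adam19 and Dicer1 likewise had sides without overlap (1.20, 1.51 and 0.52). Among the 71 lower genes were the glucose transporter Slc2a1 (-1.24 ± 0.14, adjusted p = 2.34e-06), the kinase Pdk1 (-1.13, adjusted p = 0.014), the prolyl hydroxylase Egln1 (-0.65, adjusted p = 0.0273) and the lactate transporter Slc16a3 (-0.70, adjusted p = 0.00212).

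Some imprinted genes were among the calls, and how many imprinted genes were tested was not counted. The maternally expressed RNAs Meg3, Rian and Mirg of 1 locus were lower by -1.05, -0.95 and -0.87 (adjusted p = 2.73e-05, 0.00233 and 0.0378), and H19 by -0.71 (adjusted p = 0.041). The paternally expressed Snhg14 and Snrpn were lower as well (-0.68 and -0.45, adjusted p = 0.000701 and 0.0228). Peg3, a paternally expressed zinc finger gene, was higher by 1.13 (adjusted p = 3.56e-05), as was Phlda2. Of the retinoic acid binding proteins, Crabp2 was lower (-1.08, adjusted p = 0.00821) while Crabp1 was higher (2.23).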
